A study of Mus musculus with 20 samples.

Results

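The thin filament isoforms of the sarcomere were followed in whole hearts of fetal mice across a maternal dose series of TCDD, a dioxin that binds the aryl hydrocarbon receptor (AhR). The genes were Actc1, Acta1, Tnnt2, Tnnt1, Tnni1, Tnni3, Tnnc1 and Tpm1, with Ankrd1 as a stress-responsive sarcomere gene beside them. They were found by symbol: the platform annotation gives 11 of 12422 probe sets to these 9 genes alone, out of 8251 genes that it names singly. All 11 passed the filter on dim probe sets, and 0 probe sets with several symbols held any of the 9 genes. The series had 8 arrays of corn-oil controls and 4 arrays each at 1.5, 3 and 6 µg/kg TCDD. Dams were dosed by oral gavage on gestation day 14.5 and hearts were taken on day 17.5. The dosing day was given in that form for 19 of the 20 arrays. The labels name no strain. How many hearts or litters went into an array is not stated either, so a p reflects the spread between arrays, which may be technical. Values were MAS5 signals, the linear intensity that Affymetrix software gives a probe set, scaled to the same trimmed mean of 500 on each array. Array medians lay between 171 and 210.4, and the number of arrays limits the precision.

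Contraction is switched on along the thin filament, a polymer of actin wound with tropomyosin and carrying the troponin complex. Troponin C binds calcium, troponin I holds the filament off until calcium arrives, and troponin T ties the complex to tropomyosin. Vertebrate hearts use different genes for these parts as they mature. The fetal rodent heart contains slow skeletal troponin I (Tnni1) and skeletal α-actin (Acta1) beside the cardiac forms (Tnni3, Actc1), and the cardiac forms take over around and after birth. Tnnt2 and Tnnt1 encode the cardiac and the slow skeletal troponin T, and Tnnc1 is shared by heart and slow muscle. In the mouse the genes are paired on the chromosomes: Tnnt1 and Tnni3 are neighbours on chromosome 7 with 0 protein-coding genes between them, and Tnni1 and Tnnt2 on chromosome 1 have 1 between them (assembly GRCm38.p6).

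The bases upstream of the RefSeq start sites were read for 3 motifs: the CArG box bound by serum response factor (SRF), the AhR core GCGTG, and CATTCC, the core of the site bound by TEAD factors. RefSeq promoters (build GRCm38.p6) matched 9 of the 9 genes, with 11 start sites. A CArG box stood upstream of both α-actin genes and of no other of the 9, against 1.47% of 32851 promoter windows of the same 250 bases. GCGTG was found for Tnnt2 and Tpm1, against 28.16% of windows, and CATTCC for Tnnt2, Acta1, Tpm1, Tnnc1 and Ankrd1, against 12.64%. All motifs were searched on both strands, and the matches did not overlap each other in these windows. The sequences below are those of the actin pair, of the 2 genes with GCGTG and of Ankrd1, which held CATTCC 2 times; each is 250 bases ending at the base before the start site, 5′ to 3′ on the gene's strand, with motif matches in capitals. A match is a run of letters and not a shown binding site.
Actc1, chr2:114052876-114053125, minus strand: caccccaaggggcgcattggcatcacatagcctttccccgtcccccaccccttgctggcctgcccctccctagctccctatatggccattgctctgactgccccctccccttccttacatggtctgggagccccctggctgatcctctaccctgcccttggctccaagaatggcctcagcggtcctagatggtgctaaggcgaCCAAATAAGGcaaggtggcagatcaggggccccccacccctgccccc
Acta1, chr8:123894776-123895025, minus strand: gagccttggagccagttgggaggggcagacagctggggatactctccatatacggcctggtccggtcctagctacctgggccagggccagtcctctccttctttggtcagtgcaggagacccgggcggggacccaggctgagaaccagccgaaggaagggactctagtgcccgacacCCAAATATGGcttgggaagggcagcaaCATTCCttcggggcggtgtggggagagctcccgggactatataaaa
Tnnt2 (the first of its 2 start sites), chr1:135836084-135836333, plus strand: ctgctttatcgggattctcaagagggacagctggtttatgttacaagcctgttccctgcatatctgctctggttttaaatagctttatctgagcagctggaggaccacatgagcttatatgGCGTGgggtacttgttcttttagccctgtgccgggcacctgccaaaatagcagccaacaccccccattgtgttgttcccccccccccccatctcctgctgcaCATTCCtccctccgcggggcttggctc
Tpm1, chr9:67049214-67049463, minus strand: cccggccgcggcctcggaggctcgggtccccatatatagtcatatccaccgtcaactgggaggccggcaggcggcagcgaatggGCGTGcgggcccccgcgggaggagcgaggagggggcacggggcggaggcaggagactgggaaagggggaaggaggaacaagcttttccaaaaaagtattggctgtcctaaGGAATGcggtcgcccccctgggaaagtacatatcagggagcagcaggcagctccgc
Ankrd1, chr19:36119845-36120094, minus strand: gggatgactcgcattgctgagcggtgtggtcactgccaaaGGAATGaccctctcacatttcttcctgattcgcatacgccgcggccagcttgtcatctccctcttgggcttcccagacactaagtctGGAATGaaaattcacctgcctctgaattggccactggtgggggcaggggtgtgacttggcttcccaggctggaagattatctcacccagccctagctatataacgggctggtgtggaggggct
The CArG box read CCAAATAAGG from base −47 of Actc1 and CCAAATATGG from base −73 of Acta1, counted from the start site. In Acta1 a CATTCC followed at −46. The GCGTG lay at −129 in Tnnt2 and at −166 in Tpm1.

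None of the thin filament genes was called changed by TCDD at any dose. In limma fits over 8097 tested probe sets, adjusted by Benjamini-Hochberg at 0.05, 0 of the 11 probe sets passed at 1.5 µg/kg, where 0.21% of all tested probe sets did. The count was also 0 of 11 at 3 µg/kg (0.0247% of all) and 0 of 11 at 6 µg/kg (0.0741% of all). Without adjustment, 0, 1 and 1 of the 11 had p under 0.05 at the 3 doses from low to high, against 12.6%, 5.72% and 9.15% of all tested probe sets. The single probe set was Ankrd1 at 3 µg/kg and a Tnnt1 probe set at 6 µg/kg. No dose had all 4 arrays above or all 4 arrays below the 8 controls for any of the 11 probe sets; over all tested probe sets the shares above and below every control were 1.06% and 0.395% at 1.5 µg/kg, 0.321% and 0.222% at 3 µg/kg, and 0.494% and 0.358% at 6 µg/kg.

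**Figure D1:**
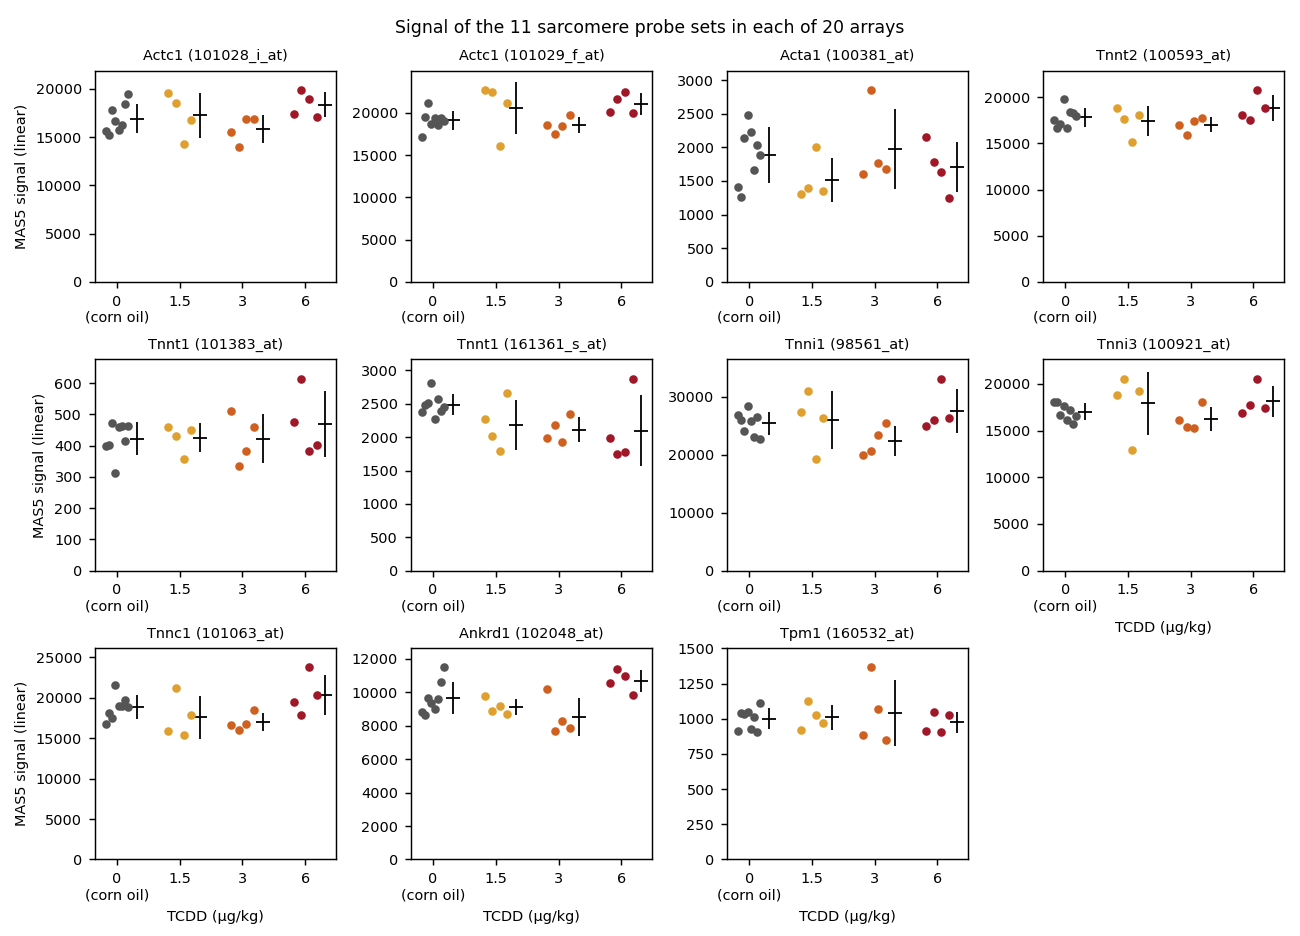
MAS5 signal (vertical axes, linear, starting at 0) of each of the 11 probe sets against TCDD dose in µg/kg. Each point is 1 array (8 controls, 4 per dose), and the black dash and bar beside the points are the group's mean ± SD. The points of every dose overlap those of the controls in every panel, and Acta1 shows a wide spread within groups.

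The estimated changes were small in both directions. The median log2 change of the 11 probe sets was 0.01 at 1.5, −0.07 at 3 and 0.11 at 6 µg/kg, beside 0.01, 0.00 and 0.00 over all tested probe sets. At 1.5 µg/kg 6 of 11 lay above controls and at 3 µg/kg 2 of 11 did, but after quantile normalization these counts were 5 and 5. At 6 µg/kg 8 of 11 lay above controls, and 6 of 11 after quantile normalization, with Tnnt2 and Tnni1 changing side. Quantile normalization gives every array the same set of values, so it leaves little room for change in Actc1, Tnnt2, Tnni1, Tnni3 and Tnnc1, which lie at the top of each array. The 95% intervals of single probe sets reached at the extremes 0.63-fold and 1.22-fold at 1.5 µg/kg, 0.72-fold and 1.35-fold at 3 µg/kg, and 0.70-fold and 1.32-fold at 6 µg/kg. These intervals are per probe set and not adjusted for the number of tests. In such whole-heart samples, fewer cells of a type and less RNA per cell cannot be told apart.

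**Figure D2:**
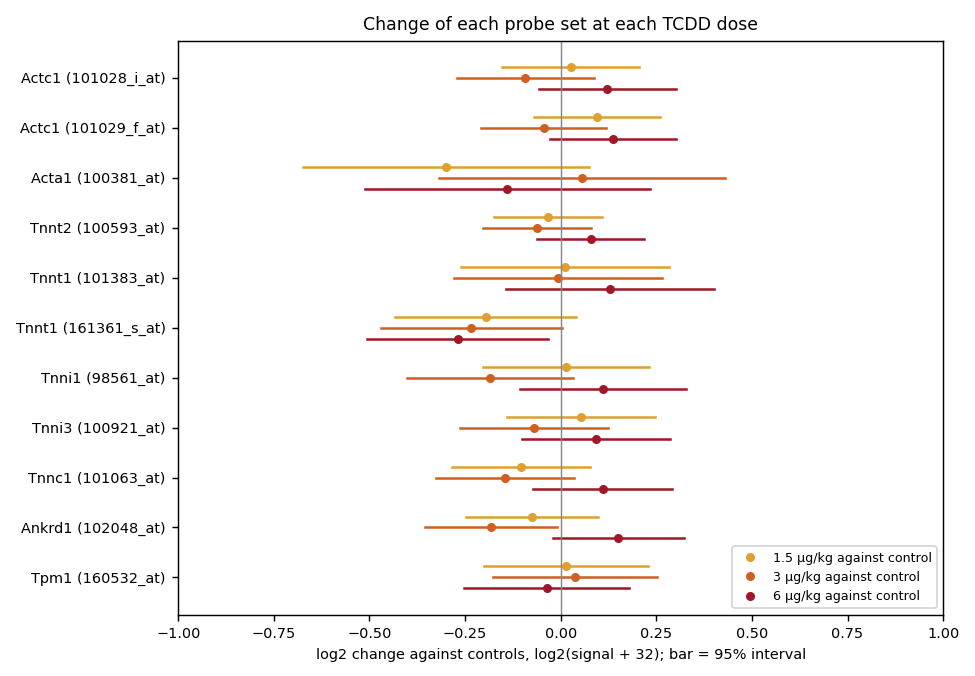
Log2 change against controls on the log2(signal + 32) scale (horizontal axis) of the 11 probe sets at 1.5, 3 and 6 µg/kg TCDD. Points are limma estimates and bars 95% intervals, not adjusted for multiple tests; the intervals that leave out 0 are those of Ankrd1 at 3 µg/kg and of the Tnnt1 probe set 161361_s_at at 6 µg/kg.

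Acta1, the skeletal α-actin that fetal hearts also use, was the most variable of these genes from array to array. Its signals in controls ran from 1266 to 2481 with a median of 1960.0. At 1.5 µg/kg the arrays read 1304, 1396, 2007 and 1358, at 3 µg/kg 1597, 2855.5, 1772 and 1673.5, and at 6 µg/kg 2149, 1779, 1640.1 and 1245. Of the 4 arrays at 1.5 µg/kg, 3 lay near the bottom of the control range and array 3 lay inside it, while at 3 µg/kg array 2 exceeded every control. The group means were 1887 ± 418 in controls (SD, n = 8), 1516 ± 329 at 1.5, 1975 ± 592 at 3 and 1703 ± 373 at 6 µg/kg (SD, n = 4 each), and between neighbours in the order of these means the difference was smaller than their SDs. On the log2 scale the estimates for Acta1 were −0.30, 0.06 and −0.14 (standard error 0.18), and limma's adjusted p was 0.5025, 0.9945 and 0.825. The within-group SD of Acta1, 0.33 on the log2 scale, lay at the 79th percentile of all tested probe sets, and those of the other 10 probe sets between the 1.26th and the 44.9th. Spread was not compared among probe sets of like brightness, so these ranks may reflect signal level as well as the gene.

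Acta1 signals also went with a measure of RNA integrity. In 4 arrays, namely array 4 of the 6 µg/kg dose with controls 1, 2 and 6, the β-actin control probe sets gave a log2 ratio of 3′ over middle signal of 0.896 to 1.337, and Acta1 read 1245 to 1659.5 with a median of 1336. In the other 16 arrays the ratio was 0.351 to 0.61 and Acta1 read 1304 to 2855.5 with a median of 1831. Among the arrays of lower ratio, 3 of 4 at 1.5 µg/kg, 3 of 4 at 3 µg/kg and 2 of 3 at 6 µg/kg lay below the lowest of the 5 controls, which read 1883. Controls 1, 2 and 6, set aside by this split, were the lowest controls for Acta1, at 1407, 1266 and 1659.5. The split thus raised the floor of the controls. It was chosen after seeing the data, and the share of all tested probe sets below the same 5 controls was not computed. With the ratio as a covariate the log2 change of Acta1 at 1.5 µg/kg was −0.54 (limma adjusted p = 0.0526), and without those 4 arrays it was −0.51 (adjusted p = 0.12). At 3 µg/kg these settings gave −0.19 and −0.16, opposite in sign to the estimate from all arrays. Neither setting brought Acta1 past the threshold at any dose, and the part of RNA quality in these values was not tested further.

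Actc1, the cardiac α-actin and main actin of the heart sarcomere, varied far less. Its brighter probe set (101029_f_at) read 17127 to 21191 in controls, with a median of 19247. The arrays at 1.5 µg/kg read 22725, 22454, 16069 and 21168, those at 3 µg/kg 18517, 17490.4, 18418 and 19736, and those at 6 µg/kg 20085, 21654, 22523 and 19952. Array 3 of 1.5 µg/kg was the lowest of all 20 arrays, although arrays 1 and 2 of that dose were above every control. Arrays 2 and 3 of 6 µg/kg were also above every control. Log2 changes were 0.09, −0.04 and 0.14 with a standard error of 0.08, and limma's adjusted p was 0.661, 0.984 and 0.598. The second Actc1 probe set (101028_i_at), designed on the same accession, gave 0.03, −0.09 and 0.12. Cardiac and skeletal α-actin have nearly the same coding sequence, and the suffix f marks probes that can match a gene family, so signal shared between the actins was not separated here.

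Tnnt2, the cardiac troponin T, was the steadiest of the genes, with a within-group SD of 0.097 on the log2 scale, at the 1.26th percentile of all tested probe sets. Its signal lay between the 99.74th and 99.86th percentile of each array, and its spread was not compared with that of equally bright probe sets. Controls ran from 16678 to 19791 with a median of 17765. At 1.5 µg/kg the signals were 18869.9, 17675, 15189.7 and 18032, at 3 µg/kg 17008, 15969, 17465 and 17755, and at 6 µg/kg 18036, 17592, 20809.9 and 18862. All but 3 of these 12 arrays lay inside the control range; the 3 were array 3 of 1.5 µg/kg and array 2 of 3 µg/kg below it and array 3 of 6 µg/kg above it. Log2 changes of −0.03, −0.06 and 0.08 with a standard error of 0.07 had limma adjusted p-values of 0.873, 0.961 and 0.738.

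The slow skeletal troponin T, Tnnt1, gave different answers in its 2 probe sets. The brighter (161361_s_at) ran from 2272 to 2814 in controls with a median of 2469. It read 2266, 2023, 1789.5 and 2666 at 1.5 µg/kg, 1985, 2176, 1934 and 2352 at 3 µg/kg, and 1983, 1746, 1784 and 2878 at 6 µg/kg. Below every control lay 3 arrays at each dose, while array 4 of 6 µg/kg was above every control. Mean signals were 2487 ± 161 in controls (SD, n = 8), 2186 ± 374 at 1.5, 2112 ± 191 at 3 and 2098 ± 530.4 at 6 µg/kg (SD, n = 4 each). The log2 changes were −0.20, −0.23 and −0.27 with a standard error of 0.11, none past the threshold (limma adjusted p = 0.487, 0.859 and 0.513). Without array 4 of 6 µg/kg, which also had a high β-actin ratio, the change at that dose was −0.43 (adjusted p = 0.0886). Without all 4 arrays of high ratio it was −0.43 (limma adjusted p = 0.28). With the ratio as a covariate it was −0.24 (limma adjusted p = 0.556). Controls 1, 2 and 6, which also had a high ratio, read 2385, 2489 and 2573, beside the control median of 2469. The part of RNA quality in the high value of array 4 was not tested.

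The dimmer Tnnt1 probe set (101383_at) did not share that pattern. It ran from 311 to 472 in controls with a median of 436, and read 459, 432, 357.5 and 449.5 at 1.5 µg/kg. At 3 µg/kg it read 509, 334, 383 and 461, and at 6 µg/kg 477, 614, 381 and 403. Its log2 changes were 0.01, −0.01 and 0.13 with a standard error of 0.13 (limma adjusted p = 0.98, 0.997 and 0.781). Arrays 1 and 2 of 6 µg/kg, low in the brighter probe set, were the highest of their dose here. The sequence that a probe set was designed on was known here for the dimmer Tnnt1 probe set but not for the brighter (161361_s_at). Which transcripts each probe set detects was not examined, so the direction for Tnnt1 is uncertain.

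Troponin I was measured in its fetal and its adult cardiac form. Tnni1, the slow skeletal form that the fetal heart uses, read 22707 to 28412 in controls with a median of 25885. It read 27355, 31002, 19163.5 and 26277 at 1.5 µg/kg, 19947, 20643, 23425 and 25521 at 3 µg/kg, and 24905, 25887, 33101 and 26247 at 6 µg/kg. Of the arrays at 3 µg/kg 2 of 4 lay below every control, at 1.5 µg/kg array 3 lay below and array 2 above all of them, and array 3 of 6 µg/kg was the highest of all arrays. Log2 changes were 0.01, −0.19 and 0.11 with a standard error of 0.10 (limma adjusted p = 0.971, 0.887 and 0.763). Tnni3, the cardiac form, read 15651 to 18078 in controls with a median of 16966, and 18799, 20560.4, 12967 and 19272.5 at 1.5 µg/kg. Its arrays read 16129, 15433.5, 15269 and 18060.5 at 3 µg/kg and 16881, 17788.5, 20549 and 17366 at 6 µg/kg. Array 3 of 1.5 µg/kg was again the lowest of all and array 3 of 6 µg/kg lay near the top, above every control. Arrays 1, 2 and 4 of 1.5 µg/kg also lay above every control, and arrays 2 and 3 of 3 µg/kg below every control. Tnni3 had log2 changes of 0.05, −0.07 and 0.09 with a standard error of 0.09 (limma adjusted p = 0.847, 0.975 and 0.781).

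Tnnc1, the calcium sensor shared by heart and slow muscle, ran from 16796 to 21603 in controls with a median of 18939. It read 15944, 21252, 15389 and 17849.6 at 1.5 µg/kg, 16621, 15998, 16821 and 18517 at 3 µg/kg, and 19524, 17833.5, 23763 and 20369 at 6 µg/kg. At 1.5 and at 3 µg/kg 2 of 4 arrays lay below every control, and array 3 of 6 µg/kg lay above them. Log2 changes were −0.10, −0.15 and 0.11 with a standard error of 0.09 (limma adjusted p = 0.661, 0.895 and 0.7095). Tpm1, α-tropomyosin, ran from 907 to 1112 in controls with a median of 1024. Its arrays read 922, 1126, 1025 and 969.5 at 1.5 µg/kg, 885, 1364, 1070.3 and 849.7 at 3 µg/kg, and 912, 1048, 906 and 1027 at 6 µg/kg. Array 2 of 3 µg/kg, the highest for Tpm1, was also the highest array for Acta1. Log2 changes of Tpm1 were 0.01, 0.04 and −0.04 with a standard error of 0.10, and its limma adjusted p was 0.93 or more at each dose.

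Ankrd1 encodes an ankyrin repeat protein that binds titin in the I band and also acts in the nucleus, and it is known to respond to mechanical stress in the heart. Controls ran from 8626 to 11482 with a median of 9500.1. The signals were 9765, 8847, 9148 and 8713 at 1.5 µg/kg, 10184, 7703, 8304 and 7867.5 at 3 µg/kg, and 10547, 11373, 10951 and 9843 at 6 µg/kg. At 3 µg/kg 3 of 4 arrays lay below every control and array 1 lay inside their range, whereas all 4 arrays of 6 µg/kg were above the control median. Log2 changes were −0.08, −0.18 and 0.15 with a standard error of 0.08 (limma adjusted p = 0.7499, 0.854 and 0.586). The group means in rising order were 3 µg/kg, 1.5 µg/kg, control and 6 µg/kg, and the ranges of neighbours in that order overlapped.

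Between doses, Ankrd1 had the smallest unadjusted p of the 11 probe sets. At 6 µg/kg its mean signal was 10678 ± 651, against 8515 ± 1141 at 3 µg/kg (SD, n = 4 each), a log2 difference of 0.33 with a standard error of 0.10 (unadjusted p = 0.00215, adjusted p = 0.184, limma). Array 1 of 3 µg/kg overlapped the 6 µg/kg arrays. After quantile normalization the difference was 0.25 (adjusted p = 0.352). Tnni1, Tnnc1 and the Actc1 probe set 101028_i_at also had unadjusted p under 0.05 between 6 and 3 µg/kg, with log2 differences of 0.30, 0.26 and 0.21, which were 0.09, 0.09 and 0.07 after quantile normalization. Only Ankrd1 had an unadjusted p under 0.05 between these doses after it (0.0214, limma). Quantile normalization leaves little room for change in Tnni1, Tnnc1 and Actc1 at the top of each array. Their smaller differences therefore cannot show whether the shifts in the scaled signals hold. The scaled signals thus gave 4 of 11 beside 11.6% of all tested probe sets, and 0 of 11 after adjustment beside 0.0371% of all. Between 6 and 1.5 µg/kg 0 of 11 passed after adjustment (0.346% of all), and 2 of 11, Ankrd1 and Tnnc1, had an unadjusted p under 0.05 (15.6% of all). Their log2 differences of 0.23 and 0.21 were 0.11 (unadjusted p = 0.276) and 0.12 (unadjusted p = 0.055) after quantile normalization, so neither stayed under 0.05. Between 3 and 1.5 µg/kg 0 of 11 passed (0.0% of all), and 0 of 11 had an unadjusted p under 0.05 (2.79% of all).

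Tests that took the doses together gave the same count. The joint test of the 3 doses called 0 of 11 (0.185% of all). Ankrd1 had the smallest p and the only unadjusted p under 0.05 among the 11 (0.0156, against 12.5% of all under 0.05; limma adjusted p = 0.278). The linear trend over dose called 0 of 11 (0.0618% of all), and its steepest slope was that of the brighter Tnnt1 probe set, −0.045 on the log2 scale per µg/kg with a standard error of 0.019 (limma adjusted p = 0.626); that probe set was the 1 of 11 with an unadjusted p under 0.05, beside 7.22% of all. Controls 1 to 4 and controls 5 to 8 are told apart in the labels by number alone, but the arrays differed: 1.57% of all tested probe sets passed between them, more than at any dose, and 2 of controls 1 to 4 against 1 of controls 5 to 8 had a high β-actin ratio. Among the thin filament probe sets 0 of 11 passed and 0 of 11 had an unadjusted p under 0.05 (14.9% of all), with log2 differences of −0.18 to 0.10. The median size of that difference was 0.095, beside median sizes of 0.054, 0.069 and 0.12 for the dose changes from low to high. These sizes are not on an equal footing, since the control split compares 4 arrays with 4 and a dose change 4 with 8. The standard error was 0.21 in the split against 0.18 at a dose for Acta1, and 0.080 against 0.068 for Tnnt2.

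The balance between isoforms was read inside each array as the log2 ratio of 2 probe sets minus the control mean, which removes differences between arrays that act on both. Since probe sets differ in affinity, only shifts in the ratio between groups were read. The balance of slow skeletal over cardiac troponin I (Tnni1 over Tnni3) was the tightest across doses, at −0.04 ± 0.06 at 1.5, −0.12 ± 0.13 at 3 and 0.02 ± 0.06 at 6 µg/kg (SD, n = 4 each), where the controls had an SD of 0.12 (n = 8). Every dose mean lay within 1 SD of the controls. Of the 12 TCDD arrays only array 1 of 3 µg/kg, at −0.27, lay outside the control range of −0.16 to 0.18.

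Skeletal over cardiac α-actin (Acta1 over Actc1) stood at −0.39 ± 0.51 at 1.5, 0.10 ± 0.44 at 3 and −0.28 ± 0.32 at 6 µg/kg, with a control SD of 0.31. The arrays at 1.5 µg/kg read −0.74, −0.63, 0.37 and −0.58, and 3 of these lay below every control. Single arrays set much of these means and SDs. Without array 3 the mean at 1.5 µg/kg was −0.65. The arrays at 3 µg/kg read −0.16, 0.75, −0.004 and −0.18, and their mean was −0.12 without array 2, opposite in sign to the mean of all 4, 0.02 without control 2, and 0.16 to 0.20 without control 4, array 1 or array 4. At 6 µg/kg the mean was −0.42 without array 1 and −0.16 without array 4. This balance carried the Acta1 values that went with the β-actin ratio.

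Slow skeletal over cardiac troponin T (Tnnt1 over Tnnt2, brighter probe sets) stood at −0.16 ± 0.17, −0.17 ± 0.14 and −0.35 ± 0.35 from the low to the high dose, against a control SD of 0.06. Below every control were 3 of 4 arrays at 1.5 µg/kg, 2 of 4 at 3 µg/kg and 3 of 4 at 6 µg/kg, where the arrays read −0.34, −0.48, −0.70 and 0.13. Array 4 of 6 µg/kg was above every control. Without array 4 of 1.5 µg/kg the mean at that dose was −0.24. With the dimmer Tnnt1 probe set the same balance was 0.045, 0.055 and 0.050, so the lower balance was seen with 1 of the 2 probe sets.

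**Figure D3:**
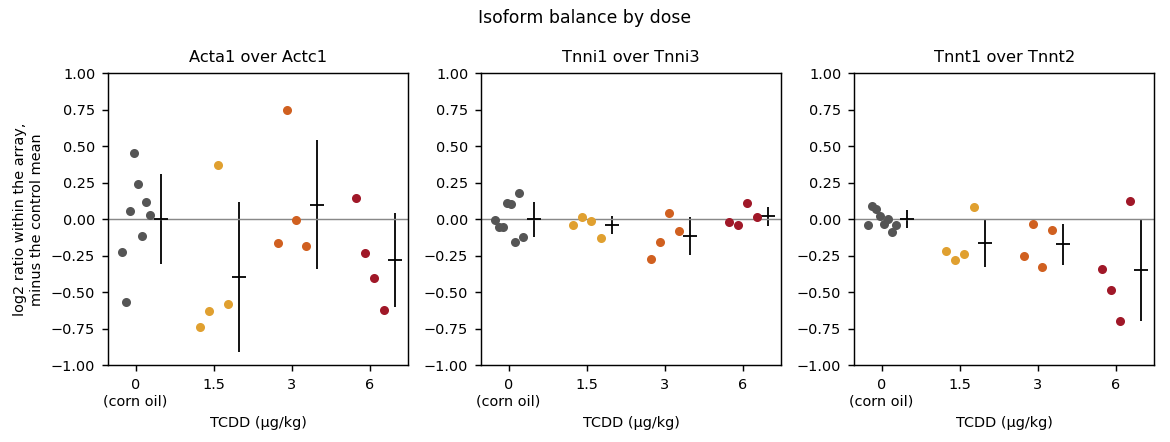
Isoform balance (vertical axis, log2 ratio of 2 probe sets within an array minus the control mean) against TCDD dose for Acta1 over Actc1, Tnni1 over Tnni3 and Tnnt1 over Tnnt2. Each point is 1 array (8 controls, 4 per dose), and dashes with bars are means ± SD. All but 1 of the 12 TCDD arrays lie inside the control range for troponin I, and the troponin T balance of 3 arrays at 1.5 and 3 arrays at 6 µg/kg lies below all controls.

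In the scaled signals Actc1, Tnnt2, Tnni1, Tnni3 and Tnnc1 moved together from array to array. Their signals lie at the upper end of each array, above the 99.6th percentile of its probe sets, which says nothing of the relative abundance of the transcripts. With group means removed, the 10 pairs among these 5 genes had Pearson r of 0.427 to 0.819 (median 0.655) over the 20 arrays, which share scaling and array quality. After quantile normalization the same pairs had r of −0.505 to 0.322 (median −0.191). Array 3 of 1.5 µg/kg had a mean log2 signal over the 5 genes of −0.31 relative to the control mean, with 0 of 5 above it, and array 3 of 6 µg/kg had 0.29, with 5 of 5 above it. Other bright probe sets went with them in part. The 99th percentile of all other probe sets was 7669.5 in array 3 of 1.5 µg/kg, the lowest of the 20 arrays, but its 9612.9 in array 3 of 6 µg/kg was below that of array 4 of the same dose (9622.6) and of controls 4 and 6 (9891 and 9652). Array 2 of 1.5 µg/kg, with the second highest mean over the 5 genes (0.194), had 8815.

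Quantile normalization cannot show whether these shifts belong to the 5 genes, since it fixes the values at the top ranks of each array. The part of array-wide signal in the small dose shifts of the 5 genes was not tested.

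**Figure D4:**
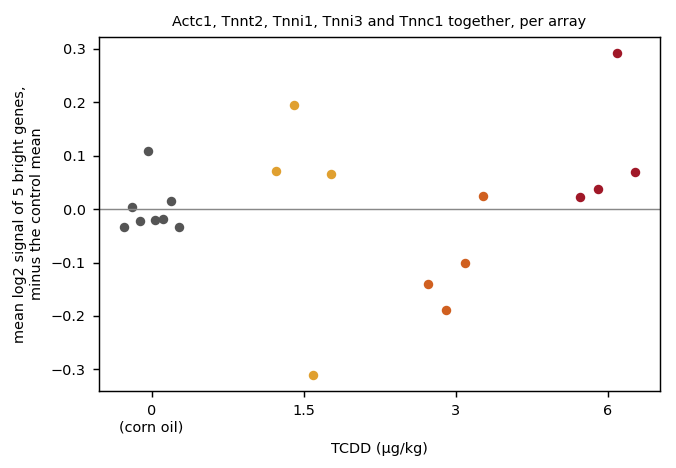
Mean log2 signal of Actc1, Tnnt2, Tnni1, Tnni3 and Tnnc1 in each array minus the control mean (vertical axis) against TCDD dose in µg/kg, after scaling to a trimmed mean. Each point is 1 array (8 controls, 4 per dose); array 3 of 1.5 µg/kg is at −0.31 and array 3 of 6 µg/kg at 0.29.

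The genes most like each isoform were found by the correlation of log2 signal over all 20 arrays, given as a description. Tnni1 was most like Myl2, the ventricular myosin light chain (r = 0.923), and Tnni3 most like Myh7, the slow and fetal cardiac myosin heavy chain (r = 0.873). Actc1 was most like Tpt1 (r = 0.931), Tnnc1 like the ribosomal protein gene Rpl41 (r = 0.904), and Tnnt2 like Ndufb5, a subunit of respiratory complex I (r = 0.856). Acta1 was most like Rab18 (r = 0.837), Ankrd1 like Fam162a (r = 0.85), Tpm1 like Ndn (r = 0.784) and Tnnt1 like Sf3b5 (r = 0.783). With group means removed, the most alike gene became Zfp277 for Acta1 (r = 0.872) and Cplx1 for Ankrd1 (r = 0.826). For Tnnt1 it became Pafah1b2 (r = 0.895) and for Tnni3 Cyc1 (r = 0.903). The other isoforms kept the gene named above. The part of array-wide signal in these likenesses was not tested.

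Other sarcomere genes had no calls either. Of 29 further thin filament genes 16 were tested, and 0 passed in either direction at any dose. Only 0.21%, 0.0247% and 0.0741% of all tested probe sets passed at the 3 doses, so 0 in lists this small says little. Unadjusted p was under 0.05 for 0, 1 and 0 of the 16 from the low to the high dose (limma). Capzb, a subunit of the protein that caps actin at the Z disc, had the smallest joint p of them, with log2 changes of 0.19, 0.28 and −0.22 (joint adjusted p = 0.221, limma). Tpm2, β-tropomyosin, stood at 0.19, 0.20 and −0.09, and Nrap, which binds actin during myofibril assembly, at 0.07, 0.05 and −0.26. Tnnc2, the fast skeletal troponin C, stood at −0.33, −0.45 and 0.23 from a control signal of 153 ± 38.8 (SD, n = 8). Among 24 tested genes of the thick filament, titin and Z disc, 0 passed at any dose. Unadjusted p was under 0.05 for 5 of the 24 at 1.5, 2 at 3 and 1 at 6 µg/kg (limma). The shares of all tested probe sets were 12.6%, 5.72% and 9.15%. Below controls lay 15, 16 and 11 of the 24 at these doses. Myh6, the fast cardiac myosin heavy chain, had −0.23, −0.22 and −0.07, and Myoz1, a calcineurin-binding Z disc protein, 0.30, 0.01 and −0.32. Fhl1 had 0.15, 0.21 and −0.01, and Actn3, the fast skeletal α-actinin, −0.47, −0.05 and 0.28.

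Factors known to act on these genes also had 0 calls among 10 tested of 16. At 1.5 µg/kg 8 of the 10 lay above controls with a median log2 change of 0.28, beside 0.01 over all tested probe sets, and 6 of 10 had an unadjusted p under 0.05, beside 12.6% of all tested probe sets. At 3 µg/kg 7 of 10 lay above controls with a median of 0.11, and 1 had an unadjusted p under 0.05, beside 5.72% of all. At 6 µg/kg 5 of 10 lay above controls with a median of 0.00, and 0 had an unadjusted p under 0.05, beside 9.15% of all. Mrtfa, a coactivator of SRF that is held by unpolymerized actin, had 0.47, 0.36 and 0.02 and the smallest adjusted p of the list (0.0955 at 1.5 µg/kg, limma). Mef2a, a muscle transcription factor, had 0.48, 0.34 and −0.33, Gata6 0.28, −0.02 and −0.14, and Hand2, a regulator of ventricle growth, 0.47, 0.11 and 0.14. The list was chosen with earlier results of these data known.

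The samples carried heart transcripts: all 17 cardiomyocyte markers on the array passed the filter, and their summed signal was 147111 to 182812.5 at 1.5 µg/kg, 156749.5 to 173533 at 3 µg/kg and 169767 to 205809.8 at 6 µg/kg, against 169847 to 191449 in controls. Of 24 markers of embryonic and fast skeletal muscle, which would also carry Acta1, Tnnt1 and Tnni1, 12 passed the filter. The summed signal of all 24 was 9820 to 11132 at 1.5 µg/kg, 9466 to 10875 at 3 µg/kg and 9326 to 11569.9 at 6 µg/kg, against 10091 to 12120.4 in controls. The levels within this list were uneven. Myl1, a fast myosin light chain, read 3020 to 4237 over the 20 arrays, the calcium-binding Casq1 1655 to 2865, Ckm, a creatine kinase that heart muscle also expresses, 1598 to 2567, and Pvalb 517 to 1651. The other 20 markers read 328 or less in every array, among them the fast myosin heavy chains Myh1 (3.1 to 29.6) and Myh2 (2.8 to 44.2). Lung epithelial markers, of which 4 of 6 passed, summed to 746 to 4174 at 1.5 µg/kg, 557 to 4982 at 3 µg/kg and 459.8 to 3985 at 6 µg/kg, against 313 to 2997 in controls. The part of other tissue in the isoform values was not tested.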

How the data were processed

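RNA of whole fetal mouse hearts had been measured on 20 Affymetrix arrays. Per the submitters' processing notes the authors used MAS5, and the deposited values are its intensity on a linear scale; the MAS5 version and the genome build were not given in the sources used here. Per the labels' protocols, RNA was extracted with Trizol and labelled through double-stranded cDNA and an ENZO cRNA kit. In the deposited table each array already had a 2% trimmed mean of 500.28 to 500.341.

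Of 12488 probe sets 66 control probe sets were left out. Arrays were scaled to a trimmed mean of 500 and taken as log2(signal + 32), so changes of dim probe sets are understated. The filter kept the 8097 of 12422 probe sets that reached an array's 40th percentile in 4 or more arrays. Names came from the platform annotation, which gives 10833 probe sets 1 symbol, 396 several and 1193 none. All 20 arrays entered 1 limma fit (limma 3.58.1, R 4.3.3, eBayes with intensity trend), two-sided, adjusted over all 8097 probe sets; scripts were tested on simulated data. Isoform balances were given with no test, as were correlations.

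The genes, lists and tests were chosen with earlier results of these data known. Genes named beside the 9 are the 4 with the smallest joint p in each of 3 lists and those most alike by correlation. The main fit did not pair arrays by replicate number. Correlations of same-numbered arrays, with group means removed, lay between −0.222 and 0.21. Values for differently numbered arrays were not set beside these, so the check cannot exclude pairing. Alternatives were another normalization, pseudocount, filter, set of controls, variance model, the β-actin ratio as covariate, the replicate block and leaving out each array; leaving out the 4 arrays of highest β-actin ratio was chosen after seeing the data. Plots were drawn with matplotlib 3.10.9.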

Additional observations from a re-analysis of the deposited data

Results flagged for a closer look

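Of 56 sets of 4 or 8 array values examined for a far-off array, 3 had a highest or lowest array beyond Dixon's 95% limit, and chance gives about 1 in 20. At 1.5 µg/kg array 3 was far above the other 3 arrays for Acta1, at a signal of 2006.8. The same array was the highest at that dose for the balance of Acta1 over Actc1, at a log2 ratio of 0.369 relative to the control mean. These are not independent, since the balance contains Acta1. In controls the dimmer Tnnt1 probe set (101383_at) was lowest in array 4, at a signal of 311.2.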

How the results depend on the processing

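Under 14 alternatives and 20 fits that each left out 1 array, 0 of the 11 probe sets passed in any of the 1122 values, and the smallest adjusted p was 0.0526 (Acta1 at 1.5 µg/kg with the β-actin ratio as a covariate). Directions did turn in 50 of these values, none of them called; the cause was not tested. With quantile normalization the log2 change at 1.5 µg/kg was −0.020 for Tnnt1 (101383_at), 0.0049 for Ankrd1 and −0.027 for Tnni1, at 3 µg/kg 0.022 for Tnnt2, 0.015 for Tnni3 and 0.029 for Actc1 (101029_f_at), and at 6 µg/kg −0.0025 for Tnnt2 and −0.014 for Tnni1. Against controls 1 to 4 alone, and equally with the replicate number as a block, which ties only those controls to the doses, it was 0.00025 for Ankrd1, −3.97e-05 for Tpm1 and −0.039 for Tnni1 at 1.5 µg/kg, and 0.083 for Tnnt1 (101383_at) at 3 µg/kg. The replicate block called 0 of 11 at each dose. Against controls 5 to 8 alone it was −0.022 for Actc1 (101028_i_at) and −0.079 for Tnnt1 (101383_at) at 1.5 µg/kg, and −0.016 for Acta1 at 3 µg/kg. The β-actin ratio as a covariate gave −0.014 for Actc1 (101028_i_at) and −0.0055 for Tnnt1 (101383_at) at 1.5 µg/kg and −0.19 for Acta1 at 3 µg/kg. Leaving out the 4 arrays of highest ratio gave −0.035 for Actc1 (101028_i_at) and −0.16 for Acta1 at these doses, and array weights gave −0.00068 for Tnnt1 (101383_at) and −0.0091 for Acta1.

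Leaving out 1 array at a time, the log2 change at 1.5 µg/kg ranged from −0.073 to 0.031 for Tnnt2, −0.020 to 0.20 for Tnni3, −0.038 to 0.12 for Actc1 (101028_i_at), −0.045 to 0.086 for Tnnt1 (101383_at), −0.037 to 0.056 for Tpm1 and −0.079 to 0.15 for Tnni1. At 3 µg/kg it ranged from −0.13 to 0.14 for Acta1, −0.098 to 0.090 for Tnnt1 (101383_at) and −0.097 to 0.12 for Tpm1, and at 6 µg/kg from −0.0017 to 0.21 for Tnnt1 (101383_at). Of the 33 changes, 10 turned sign in at least 1 of these fits, and a further 15 kept their sign but moved over 1.5 times, as Acta1 at 6 µg/kg did (−0.26 to −0.0007); none was called. At 1.5 µg/kg array 3 of that dose set the upper end for Tnnt2, Tnni3, Actc1, Tnnt1 and Tnni1. The Tnnt1 over Tnnt2 balance was 0.045 at 1.5, 0.055 at 3 and 0.050 at 6 µg/kg with the dimmer Tnnt1 probe set; the other balances stayed within 1 SD of their values, although with 1 array left out Tnni1 over Tnni3 at 6 µg/kg ran from −0.011 to 0.045. The limits are the 4 arrays per dose, unstated pooling of hearts, bright signals that move together from array to array and that quantile normalization holds at fixed ranks, actin probes that may be shared between isoforms, and Tnnt1 probe sets that differ.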
